A study of Mus musculus with 71 samples.

Results

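Pax5 Prd/∆ progenitors, in which the only Pax5 protein that can be made is the DNA-binding paired domain, were compared with Pax5 +/∆ pro-B cells, which keep 1 intact Pax5 allele. The comparison asks what the paired domain fails to do when the rest of the protein is missing. Its members were the genes with more than 1 TPM (transcript abundance corrected for gene length and scaled to the same total in every library) in at least 1 of the 4 libraries of these genotypes, which were 12812 of the 25579 genes and gene features in the deposited tables. The highest of the 4 values was 1.003 TPM for Rhbdl3, the member nearest to this limit, and 0.9995 TPM for the nearest feature outside it. Of the members, 282 were immunoglobulin or histone genes, which the study leaves out of its counts, and 12530 were other genes.

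The whole series holds 71 samples, which measure RNA, chromatin accessibility or protein binding in mouse pro-B cells with or without mutations of Pax5 domains, in Pax5-deficient progenitors and in other lymphoid progenitors and thymocytes. The Pax5 Prd experiment used poly(A) RNA from 2 samples each of Pax5 Prd/∆ progenitors (Vav-Cre Pax5(Prd/fl)), Pax5 ∆/∆ progenitors (Vav-Cre Pax5(fl/fl)) and Pax5 +/∆ pro-B cells (Vav-Cre Pax5(fl/+)). All mice were C57BL/6 and carried the Vav-Cre transgene, which deletes floxed Pax5 in hematopoietic stem cells and therefore in every blood lineage. Pro-B cells were sorted from bone marrow with a pro-B cell gate, and the labels give the progenitors of both other genotypes an alternative gate. The study describes a gate for Pax5-deficient progenitors as Lin- Ly6D+ Kit high B220+, and the labels do not say whether the alternative gate is this one. Genotype and sort therefore changed together and cannot be told apart, and a change in the mix of cells cannot be told apart from a change in RNA per cell in such bulk samples. Neither the age of the mice nor whether the 2 samples of a genotype came from separate mice is given in the labels, so p-values measure the spread between these samples, which may be technical.

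Pax5 is the transcription factor that commits lymphoid progenitors to the B cell lineage. Its N-terminal paired domain binds DNA, while an octapeptide, a partial homeodomain and C-terminal regulatory domains contact corepressors, the basal transcription machinery and chromatin proteins. In pro-B cells Pax5 activates genes of the pre-B cell receptor, its signalling chain and the B-lineage program, and represses genes of stem cells, T cells, myeloid cells and other lineages. Without Pax5, progenitors that express Ebf1 and E2A accumulate but stay uncommitted.

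The tables of the Prd experiment carry no gene names, and names were assigned by row order from a named table of the same series. Over the 25579 rows, unnamed raw reads of 1 Pax5 +/+ library were 0 exactly where its named TPM were 0, and gene lengths implied by reads and TPM kept 1 constant ratio, within 1%, between that library and a Pax5 +/∆ library at 100% of the 14405 rows with a length in both (1.51% with the rows shifted by 1). Reads recovered from the TPM numbered between 29684525 and 43784791 per library. The 2 libraries of a genotype differed by a median of 0.067 on the log2 scale in Pax5 +/∆ pro-B cells, 0.12 in Pax5 ∆/∆ progenitors and 0.177 in Pax5 Prd/∆ progenitors, over genes with a mean above 5 TPM.

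Transcripts of Pax5 itself (chr4:44524757-44710487, minus strand, GRCm38) were at 620.1 and 618 TPM in Pax5 +/∆ pro-B cells, at 620.2 and 852 TPM in Pax5 Prd/∆ progenitors and 1129 and 1301 TPM in Pax5 ∆/∆ progenitors. One Pax5 Prd/∆ library was level with the Pax5 +/∆ libraries and the other was higher, and the difference did not pass the test (log2 fold change 0.23, SE 0.15, adjusted p = 0.271; limma with Benjamini-Hochberg adjustment). Transcript was counted over the whole gene and was not lower in either mutant genotype, so this value does not check the deletion. Without Pax5 Prd/∆ replicate 1 the difference from Pax5 +/∆ pro-B cells passed the test (log2 fold change 0.46, adjusted p = 0.0251). Among the genes of the gates that the study describes, Kit was at 31 and 36.2 TPM in Pax5 +/∆ pro-B cells and at 61.7 and 41.3 TPM in Pax5 Prd/∆ progenitors, and Ly6d at 550.3 and 551 TPM in the former and 2158 and 2618 TPM in the latter. Since both may have been used in sorting, their levels are given as a description. The pro-B cell markers Cd79a, Cd79b, Vpreb1, Igll1, Ebf1, Rag1, Dntt and Il7r were all above 150 TPM in both Pax5 Prd/∆ libraries.

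Many genes had changed in Pax5 Prd/∆ progenitors against Pax5 +/∆ pro-B cells, by large factors and in both directions. With the limits of the study (adjusted p under 0.05, more than 3-fold, a mean above 5 TPM in 1 genotype), 289 genes were lower in Pax5 Prd/∆ progenitors and 364 were higher, which is 2.31% and 2.91% of the 12530 genes. The lower genes had log2 fold changes from -8.46 to -1.59 with a median of -2.27, and for 66 of them the mean in Pax5 Prd/∆ progenitors was under 10% of that in Pax5 +/∆ pro-B cells. Log2 fold changes of the higher genes ran from 1.59 to 8.16 with a median of 2.38, and 88 rose more than 10-fold in mean TPM. On adjusted p alone, 2049 genes were lower and 3050 higher, or 16.4% and 24.3% of those tested, and the median log2 fold change over all 12530 genes was 0.08. This split depended on scaling, because centring each library on its median gave 2781 lower and 2426 higher genes. It also depended on the Pax5 +/∆ libraries, since 2338 genes passed without replicate 1 and 2325 without replicate 2, against 5099 with both, while the genes past all 3 thresholds numbered 624 to 703 when any 1 library was left out. A fold change here is on the scale of log2(TPM + 0.1), so that changes of low genes are understated.

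**Figure D1:**
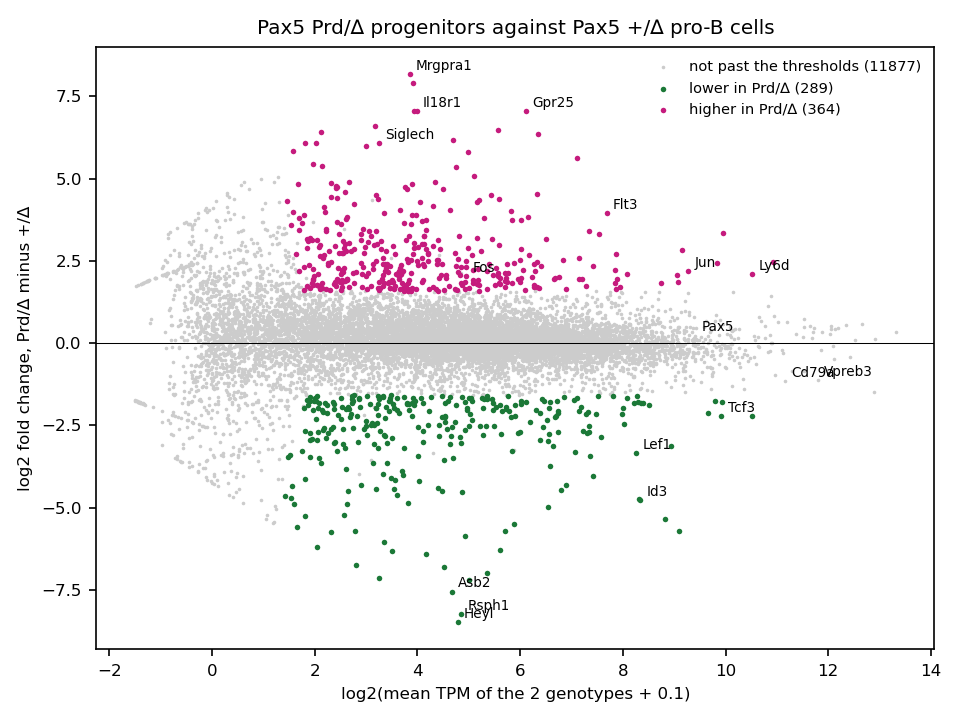
Each point is 1 of the 12530 genes, plotted by its mean level in the 2 genotypes (log2 of TPM + 0.1) and its log2 fold change in Pax5 Prd/∆ progenitors over Pax5 +/∆ pro-B cells. The 289 lower genes (green) and 364 higher genes (magenta) passed the thresholds, and Cd79a and Vpreb3 lie below 0 at high levels without reaching the 3-fold limit.

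The 12 genes that fell most were close to silent in Pax5 Prd/∆ progenitors. Heyl (chr4:123233556-123249875, plus strand), a basic helix-loop-helix repressor of the Hey family, was at 59.5 and 50.2 TPM in Pax5 +/∆ pro-B cells and at 0.142 and 0 TPM in Pax5 Prd/∆ progenitors (log2 fold change -8.46, SE 0.50, adjusted p = 7.55e-05). Asb2, the substrate receptor of a ubiquitin ligase, fell from 47.2 and 53.5 TPM to 0.149 and 0.191 TPM (log2 fold change -7.55, SE 0.26, adjusted p = 2.37e-05). Rsph1, a radial spoke protein of motile cilia, fell from 68.2 and 46.2 TPM to 0.0729 and 0.104 TPM, and the ion pump regulator Fxyd6 from 59.9 and 67.2 TPM to 0.493 and 0.223 TPM. In each of these genes the 2 genotypes were far apart. They did not overlap for any of the 289 lower genes past the thresholds, so this adds nothing to the choice of these genes.

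The other members of this group include enzymes, adaptors and channels. Alpl, tissue-nonspecific alkaline phosphatase, went from 70.4 and 90.7 TPM to 0.388 and 0.721 TPM, and the adaptor Grb7 from 115 and 78.3 TPM to 1.48 and 0.834 TPM. The calcium channel subunit gene Cacna1e fell from 36.7 and 34.1 TPM to 0.38 and 0.27 TPM. Pde9a, Tmem132e, Lgr5, Cnn1 and Jhy had log2 fold changes of -7.15, -6.81, -6.75, -6.32 and -6.19. Pax5 ∆/∆ progenitors had similarly low TPM, for example 0 and 0.0243 for Heyl, 0.38 and 0.327 for Asb2 and 0.739 and 0.634 for Alpl.

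Genes that rose most included several surface receptors. Il18r1 and Il18rap, the 2 chains of the interleukin-18 receptor, were at 0.0857 and 0.19 TPM and at 0.628 and 0.587 TPM in Pax5 +/∆ pro-B cells. In Pax5 Prd/∆ progenitors they reached 23.9 and 38.8 TPM (log2 fold change 7.04, SE 0.30, adjusted p = 3.59e-05) and 54.3 and 47.2 TPM (log2 fold change 6.16, SE 0.12, adjusted p = 7.81e-06). Il31ra, a receptor chain for interleukin-31, rose from 0.093 and 0.0763 TPM to 20.0 and 15.6 TPM, and the orphan receptor gene Gpr25 from 0.662 and 1.25 TPM to 112 and 163 TPM. No library of one genotype reached the range of the other, which held for all 364 higher genes past the thresholds and so is no further support.

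Mrgpra1, a G protein-coupled receptor gene, was listed at 0 TPM in both Pax5 +/∆ libraries and at 29.6 and 27.5 TPM in Pax5 Prd/∆ progenitors. The uncharacterised gene 5830411N06Rik was likewise listed at 0 and then at 9.18 and 7.86 TPM. Jchain, the joining chain of polymeric immunoglobulin, rose from 0.877 and 0.865 TPM to 56.8 and 132 TPM, the membrane protein gene Stum from 2.14 and 1.59 TPM to 153 and 168 TPM, and Siglech, a lectin of plasmacytoid dendritic cells, from 0.385 and 0.0564 TPM to 18.2 and 19 TPM. The remaining genes among the 12 highest changes were ccdc198, Gm6093 and Serpinb9d, with log2 fold changes of 7.89, 7.04 and 6.07.

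Of 6 genes for the pre-B cell receptor (pre-BCR), 4 were lower in Pax5 Prd/∆ progenitors (16.4% of all genes), and none of the 6 reached the 3-fold limit. Cd79a (chr7:24897381-24902197, plus strand), the signalling chain Igα, was at 3104 and 3151 TPM in Pax5 +/∆ pro-B cells, at 1343 and 1494 TPM in Pax5 Prd/∆ progenitors and 507 and 505 TPM in Pax5 ∆/∆ progenitors. Vpreb3, a small immunoglobulin-like protein that assists assembly of the receptor, was at 5043 and 4712 TPM, then 2341 and 2141 TPM and then 727 and 818 TPM in the same order. For both genes the Pax5 Prd/∆ libraries lay between the other genotypes, with no overlap on either side.

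These intermediate levels differed from both sides by limma. Cd79a had a log2 fold change of -1.14 against Pax5 +/∆ pro-B cells (SE 0.08, adjusted p = 0.000159) and a log2 difference of 1.48 from Pax5 ∆/∆ progenitors (SE 0.08, adjusted p = 0.00202). Vpreb3 had -1.12 (SE 0.10, adjusted p = 0.000348) and 1.54 (SE 0.10, adjusted p = 0.00356). The surrogate light chain gene Vpreb1 was at 2621 and 2631 TPM in Pax5 +/∆, 1377 and 1317 TPM in Pax5 Prd/∆ and 961 and 1001 TPM in Pax5 ∆/∆ cells, and its difference from Pax5 ∆/∆ progenitors was smaller (log2 difference 0.46, SE 0.08, adjusted p = 0.0442). Of 17 alternative fits, the difference from Pax5 ∆/∆ passed in 12 for Cd79a, 12 for Vpreb3 and 6 for Vpreb1, and none of the 3 passed without 1 of the Pax5 +/∆ or Pax5 ∆/∆ libraries.

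Igll1, the λ5 chain of the surrogate light chain, fell from 3938 and 3676 TPM to 2365 and 1887 TPM (log2 fold change -0.85, SE 0.12, adjusted p = 0.00247). The surrogate light chain gene Vpreb2 went the other way, from 410.2 and 375 TPM to 707 and 623 TPM (log2 fold change 0.76, SE 0.10, adjusted p = 0.0014). Vpreb1 and Vpreb2 are near-identical in sequence, so the split of reads between them is uncertain. Cd79b, the Igβ chain, was at 1617 and 1643 TPM against 1615 and 1477 TPM and did not pass the test (adjusted p = 0.487). Vpreb2 was the 1 higher gene of the 6, which had a median log2 fold change of -0.91 against 0.08 over all genes.

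Downstream of the receptor the change was uneven. Of 23 tested genes for coreceptors and signalling proteins, 9 were lower and 7 higher, against 16.4% lower and 24.3% higher of all genes, so the higher share is near that of all genes. These counts were 5 and 4 without Pax5 +/∆ replicate 1 and 5 and 3 without replicate 2. Fcrla, an intracellular Fc receptor-like protein of B cells, fell sharply, with 104 and 99.3 TPM in Pax5 +/∆ pro-B cells and at 1.58 and 2.21 TPM in Pax5 Prd/∆ progenitors (log2 fold change -5.69, SE 0.23, adjusted p = 3.23e-05). Pik3ap1, the adaptor BCAP that links the receptor to phosphoinositide 3-kinase, fell from 439.5 and 444 TPM to 73.3 and 88.1 TPM. Cd72, an inhibitory coreceptor, fell from 247 and 207 TPM to 66.4 and 43.6 TPM, and Blnk, the central adaptor of the pathway, from 1558 and 1610.0 TPM to 617 and 674 TPM. These drops were log2 fold changes of -2.46, -2.07 and -1.30, each with an adjusted p below 0.05 by limma.

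Some kinases and phosphatases of the same pathway were higher. The Src-family kinase gene Blk was at 159 and 162 TPM in Pax5 +/∆ pro-B cells and at 321 and 326 TPM in Pax5 Prd/∆ progenitors (log2 fold change 1.01, SE 0.08, adjusted p = 0.000204), and the phosphatase gene Ptpn6 at 284 and 264 TPM against 439.9 and 413 TPM (log2 fold change 0.64, SE 0.08, adjusted p = 0.00142). Fcrl1, a surface Fc receptor-like protein, rose from 5.9 and 6.18 TPM to 24.7 and 18.9 TPM. Syk, the kinase recruited by Igα and Igβ, was modestly lower at 499 and 507 TPM against 379 and 415 TPM (log2 fold change -0.34).

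Genes for B-lineage transcription factors were mostly lower in Pax5 Prd/∆ progenitors: 12 of 16 fell and 1 rose (all genes: 16.4% and 24.3%), with a median log2 fold change of -0.93. Id3, an inhibitor of E proteins, fell from 616 and 627 TPM to 21.8 and 24.1 TPM (log2 fold change -4.75, SE 0.08, adjusted p = 5.3e-06), and Ikzf3, which encodes Aiolos, from 16.7 and 11.5 TPM to 0.451 and 0.808 TPM (log2 fold change -4.30, SE 0.34, adjusted p = 0.000209). Lef1, an HMG-box factor of lymphoid precursors, fell from 561 and 557 TPM to 59.4 and 51.1 TPM. All 3 passed the 3-fold limit.

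Tcf3, which encodes the E2A proteins needed to start B cell development, fell from 1541 and 1639.8 TPM to 302 and 385 TPM (log2 fold change -2.22, SE 0.12, adjusted p = 5.95e-05). Bach2 and Spib fell by 4.21-fold and 3.05-fold. Ebf1 and Foxo1, which act upstream of or together with Pax5, were reduced less, from 366 and 351 TPM to 202 and 179 TPM and from 202 and 204 TPM to 83.2 and 97.6 TPM. Spi1, which encodes PU.1, was the member that rose, from 178 and 183 TPM to 265 and 280.2 TPM (log2 fold change 0.59, adjusted p = 0.00143).

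**Figure D2:**
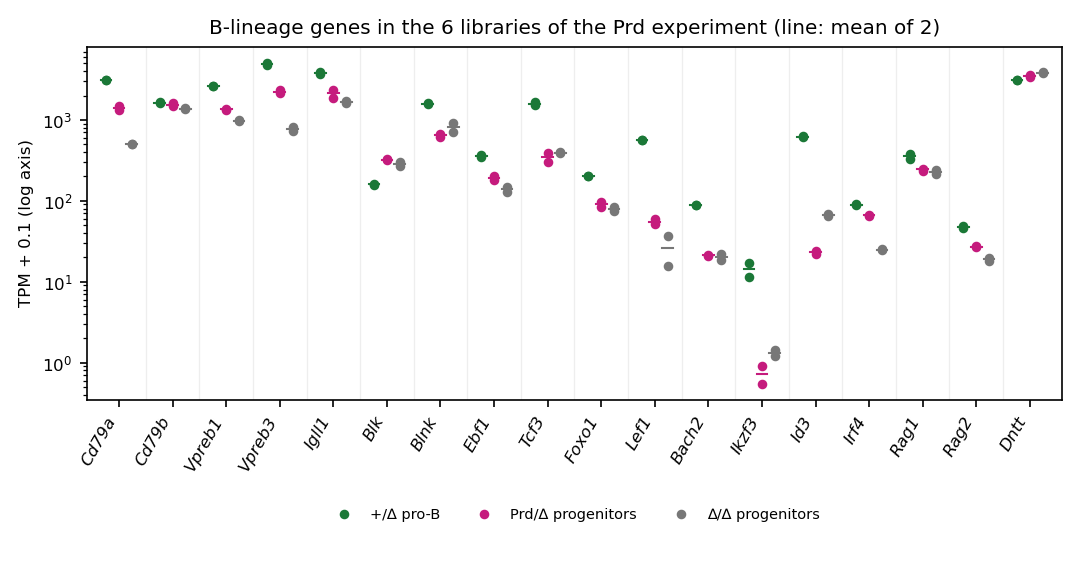
TPM + 0.1 (log axis) of 18 B-lineage genes in each of the 6 libraries, with 2 points per genotype and a line at their mean, for Pax5 +/∆ pro-B cells (green), Pax5 Prd/∆ progenitors (magenta) and Pax5 ∆/∆ progenitors (grey). Pax5 Prd/∆ libraries lie between the other genotypes for Cd79a, Vpreb1 and Vpreb3 and below both for Id3.

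Of 12 genes of V(D)J recombination, 4 were lower and 5 higher (all genes: 16.4% and 24.3%), and the higher ones numbered 1 without either Pax5 +/∆ library. Rag1, a subunit of the recombinase, fell from 331 and 376 TPM to 250.5 and 237 TPM (log2 fold change -0.54), and its partner Rag2 from 45.4 and 49 TPM to 27.6 and 26.6 TPM (log2 fold change -0.80). Dntt, the terminal transferase that adds N nucleotides, was at 3105 and 3142 TPM against 3616 and 3369 TPM and did not pass (adjusted p = 0.186). Polm, a DNA polymerase of end joining, fell from 6.49 and 4.54 TPM to 0.192 and 0.156 TPM, and the related polymerase gene Poll rose from 53.4 and 54.2 TPM to 110.1 and 102 TPM.

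For the MHC class II pathway, 3 of 10 genes were lower and 4 were higher, where 16.4% and 24.3% of all genes were. H2-Ab1, a chain of the class II molecule I-A, fell from 227 and 236 TPM to 56.3 and 63.5 TPM (log2 fold change -1.95, SE 0.12, adjusted p = 7.77e-05). The peptide-loading chains H2-DMb1 and H2-DMb2, which are close paralogs, rose from 6.17 and 6.92 TPM to 16.1 and 18.5 TPM and from 4.86 and 5.16 TPM to 17.1 and 22.2 TPM. Cd74, the invariant chain, was at 68.1 and 49.6 TPM in Pax5 +/∆ pro-B cells and at 98.2 and 218 TPM in Pax5 Prd/∆ progenitors. It passed the test as higher, although the 2 Pax5 Prd/∆ libraries differed more than 2-fold, and it did not pass in 7 of 18 alternative fits.

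Of 11 tested genes of later B cell stages, 6 were lower and 3 higher (all genes: 16.4% and 24.3%), so the higher share is near that of all genes. Cd40, the costimulatory receptor of mature B cells, fell from 9.14 and 8.04 TPM to 1.13 and 1.66 TPM, and Cxcr5, the follicular homing receptor, from 32.4 and 25.7 TPM to 6.92 and 14.3 TPM. Il2ra, which encodes CD25 and marks pre-B cells as well as early T cells, went the other way, from 2.45 and 1.45 TPM to 69.2 and 64.5 TPM (log2 fold change 5.07, SE 0.38, adjusted p = 0.000175). The study describes Il2ra as a gene that Pax5 represses. It also describes pro-B cell gates that leave out cells with CD2 or CD25, so Il2ra may have been used in sorting.

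Of 18 tested genes of stem and progenitor cells, 9 were higher and 4 lower in Pax5 Prd/∆ progenitors, and 2 and 1 were lower without Pax5 +/∆ replicate 1 and 2. Higher calls outnumbered lower ones among all genes too, at 24.3% against 16.4%, and the lower share of the list is near the latter. Flt3, the cytokine receptor that Pax5 represses at commitment, was at 21.1 and 28.9 TPM in Pax5 +/∆ pro-B cells and at 375 and 397 TPM in Pax5 Prd/∆ progenitors (log2 fold change 3.96, SE 0.15, adjusted p = 2.5e-05). The stem cell antigen gene Ly6a rose from 19.3 and 16.6 TPM to 137 and 192 TPM and Cd34 from 0.104 and 0.16 TPM to 5.95 and 3.27 TPM. Erg and Meis1, transcription factors of stem cells, went the other way, from 463 and 458 TPM to 197 and 202 TPM and from 11.7 and 14.3 TPM to 5.63 and 4.36 TPM.

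Receptors and targets of the Notch pathway did not move together, with 6 of 14 genes lower and 4 higher (all genes: 16.4% and 24.3%). The higher share is near that of all genes. Only 1 gene was lower without either Pax5 +/∆ library. Notch1, the receptor that drives T cell specification, was at 114 and 126 TPM in Pax5 +/∆ pro-B cells and at 246 and 278 TPM in Pax5 Prd/∆ progenitors (log2 fold change 1.12, SE 0.10, adjusted p = 0.000293), and Notch2 at 13.1 and 14.4 TPM against 32.7 and 37.7 TPM (log2 fold change 1.35, SE 0.11, adjusted p = 0.000279). Dtx4, a Deltex ubiquitin ligase, rose from 4.27 and 4.32 TPM to 84.2 and 98 TPM. The target genes Hes1 and Nrarp were lower, at 221 and 213 TPM against 123 and 164 TPM and at 46.4 and 51 TPM against 27.9 and 36.2 TPM, and Dtx1 fell from 4.58 and 2.77 TPM to 0.757 and 1.34 TPM. Heyl, also in this list, was described above.

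Of 12 tested T-lineage genes, 8 were higher and 2 lower (1 without Pax5 Prd/∆ replicate 1 or either Pax5 +/∆ library), with a median log2 fold change of 1.39. Since 24.3% of all genes were higher and 16.4% lower, the lower share of the list is near that of all genes. Cd7 rose from 0.788 and 0.942 TPM to 23.1 and 28.5 TPM (log2 fold change 4.75, SE 0.22, adjusted p = 4.25e-05), Tcf7, which encodes TCF-1, from 40.1 and 42.6 TPM to 84.1 and 119 TPM and the kinase gene Lck from 119 and 108 TPM to 291 and 308 TPM. Cd5, a negative regulator of receptor signalling in T and B cells, fell from 10.2 and 10.2 TPM to 2.56 and 3.06 TPM. Defining T cell genes were near 0, with Cd3e, Cd3g, Ptcra and Bcl11b below 0.4 TPM in each of the 4 libraries. The summed TPM of all 20 listed genes were 408 to 475 in Pax5 +/∆ pro-B cells and at 869.7 to 905 in Pax5 Prd/∆ progenitors.

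Genes of natural killer and innate lymphoid cells were higher for 6 of 8 tested and lower for none (all genes: 24.3% and 16.4%). Of the 6, 2 were the interleukin-18 receptor genes. Id2, an E protein inhibitor that innate lymphoid cells need, rose from 5.1 and 3.41 TPM to 36.5 and 26.6 TPM (log2 fold change 2.87, SE 0.23, adjusted p = 0.000215), and Klrd1, a lectin-like receptor, from 0.236 and 0.404 TPM to 7.88 and 4.02 TPM. Ncr1, Tbx21 and Eomes, which define natural killer cells, were at most 0.192 TPM in these libraries. Summed over the 14 listed genes, TPM were 20.4 to 24.5 in Pax5 +/∆ pro-B cells and at 148 to 170.5 in Pax5 Prd/∆ progenitors.

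Plasmacytoid dendritic cell markers were higher for 10 of 12 tested genes and lower for 1 (all genes: 24.3% and 16.4%). Cox6a2, a respiratory chain subunit gene that these cells express, rose from 3.42 and 3.19 TPM to 69.3 and 70.3 TPM (log2 fold change 4.36, SE 0.21, adjusted p = 4.25e-05), the integrin gene Itgax, which encodes CD11c, from 0.11 and 0.129 TPM to 4.1 and 3.15 TPM, and Runx2 from 1.88 and 1.93 TPM to 15.1 and 16.3 TPM. Tcf4, the E protein that directs this lineage, was the one that fell, from 76.9 and 78 TPM to 53.6 and 57.8 TPM (log2 fold change -0.48). The 14 listed genes summed to 452 to 464 TPM and 805 to 815 TPM.

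Of 19 tested granulocyte and macrophage markers, 9 were higher and none was lower, and 5 were higher without Pax5 +/∆ replicate 1. The shares over all genes were 24.3% higher and 16.4% lower. Ctsg, which encodes the granule protease cathepsin G, rose from 1.3 and 0.771 TPM to 74.2 and 50.4 TPM (log2 fold change 5.79, SE 0.26, adjusted p = 4.15e-05), Fcer1g, the common Fc receptor chain, from 10.4 and 11 TPM to 85.4 and 85.3 TPM, and Mpo, myeloperoxidase, from 4.96 and 5.22 TPM to 13.6 and 19.8 TPM. Elane, the neutrophil elastase gene, was at 4.08 and 4.72 TPM against 1.4 and 12.5 TPM and did not pass, but it was higher without Pax5 Prd/∆ replicate 1 (log2 fold change 1.49, adjusted p = 0.038) and lower without replicate 2 (-1.58, adjusted p = 0.0286). Cd14 and Adgre1 stayed below 0.4 TPM. Sums over the 22 listed genes were 299.9 to 367 and 668 to 678 TPM. For erythroid and megakaryocyte genes, 1 of 9 tested was higher (Car2, a carbonic anhydrase, 218 and 201 TPM to 582 and 659.8 TPM) and 1 lower (Epor, the erythropoietin receptor, 2.02 and 2.3 TPM to 0.352 and 1.09 TPM, not past the test in 10 of 18 alternative fits), and the globin genes Hba-a1, Hba-a2 and Hbb-bs were listed at 0 in these 4 libraries. Both counts of this list are no more than the shares among all genes (24.3% higher and 16.4% lower). Sums over the 14 listed erythroid and megakaryocyte genes were 252 to 261 and 629.5 to 712 TPM, most of it Car2. Whether cells of other types in the sorted fractions had a part in any of these list results was not tested.

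The study sorted Pax5-dependent genes into clusters by whether they needed the C-terminal domains, using other libraries of the series, and the genes it names for each cluster were taken as lists. Among the genotypes compared for this, cluster A genes passed the limits of the study only in Pax5 ∆/∆ progenitors and not after deletion of C-terminal domains, and clusters B to D hold genes that also changed after such a deletion. These genes were chosen because they differ in Pax5-deficient progenitors, so their direction here is not independent of that choice. Activated genes named for cluster A had a median log2 fold change of -1.30 in Pax5 Prd/∆ progenitors, against -3.12, -5.49 and -5.70 for clusters B, C and D. All 8, 8, 9 and 5 genes were lower, and 3, 8, 9 and 4 of them passed the thresholds.

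Examples from these clusters span a wide range of levels. Scn4a of cluster A, a sodium channel gene, fell from 9.21 and 9.36 TPM to 1.24 and 0.909 TPM, and Sit1, a transmembrane adaptor gene, from 179.7 and 157 TPM to 37.8 and 32.6 TPM, with 14.4 and 20.1 TPM in Pax5 ∆/∆ progenitors (log2 difference 1.04, SE 0.17, adjusted p = 0.0422, past the test in 9 of 17 alternative fits). In cluster B, Nedd9, a docking protein, fell from 169.7 and 162 TPM to 20.8 and 21.2 TPM and the clock gene Arntl from 198 and 174 TPM to 25.9 and 30.8 TPM. Plxdc1 and Bfsp2 of cluster C fell from 119.5 and 112 TPM to 2.52 and 2.44 TPM and from 210.1 and 244 TPM to 16.1 and 8.11 TPM. In cluster D, the claudin gene Cldn4 went from 14.8 and 12.1 TPM to 0.133 and 0.189 TPM.

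Repressed genes named for the same clusters were higher for 10 of 11 in cluster A and for all 9, 8 and 4 in clusters B, C and D, with median log2 fold changes of 1.84, 3.89, 2.56 and 2.22. Nrgn, the calmodulin-binding protein neurogranin, rose from 203 and 172 TPM to 632 and 704 TPM and Chdh, choline dehydrogenase, from 0.0695 and 0.154 TPM to 8.56 and 8.41 TPM. Ifitm1, an interferon-induced membrane protein gene, rose from 5.14 and 4.62 TPM to 156 and 385 TPM, with the 2 Pax5 Prd/∆ libraries more than 2-fold apart. Fut7, a fucosyltransferase, rose from 0.992 and 0.814 TPM to 29.3 and 27.9 TPM, and Lat2, an adaptor of Fc receptor signalling, from 7.19 and 8.66 TPM to 118 and 95.3 TPM.

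The study picked out 9 examples from a longer set of candidates for B-lineage commitment, and of these the 6 repressed genes were higher and the 3 activated genes lower in Pax5 Prd/∆ progenitors. Besides Flt3, Il18rap, Il31ra and Gpr25, these were Ffar2, a receptor for short-chain fatty acids (1.88 and 1.39 to 42.6 and 44.4 TPM), and Ociad2 (0.408 and 0.223 to 13.4 and 10.8 TPM). Among activated genes, Steap4, a metalloreductase gene, fell from 56.9 and 54.5 TPM to 13.3 and 9.16 TPM, and the TNF receptor family gene Tnfrsf19 from 129 and 125 TPM to 39.4 and 24.6 TPM. For Tnfrsf19, Pax5 ∆/∆ progenitors were at 8.36 and 14.2 TPM, and the difference from Pax5 Prd/∆ did not pass (log2 difference 1.51, SE 0.29, adjusted p = 0.0637, 95% interval 0.80 to 2.21).

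**Figure D3:**
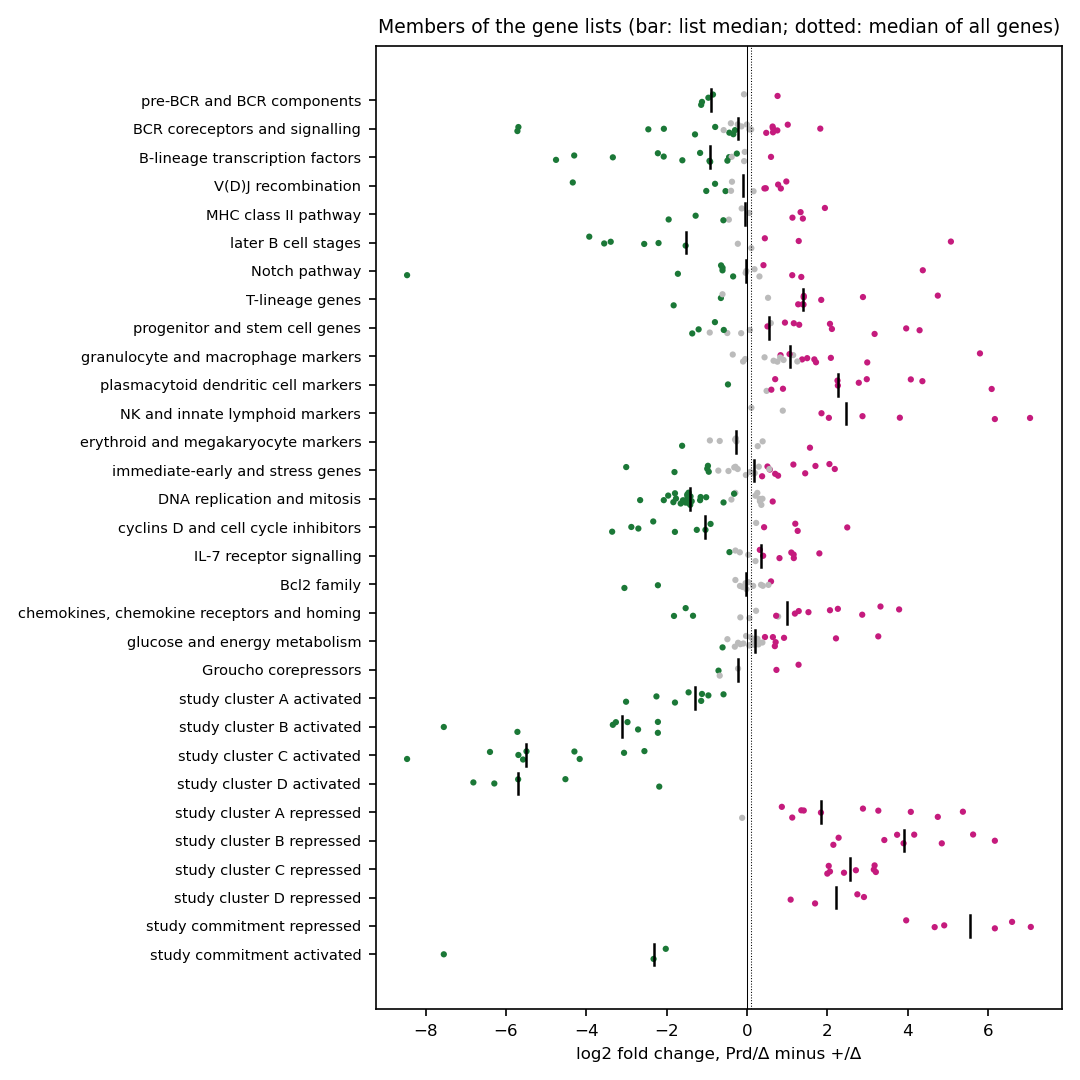
Each point is 1 gene of a list, at its log2 fold change in Pax5 Prd/∆ progenitors over Pax5 +/∆ pro-B cells: green for lower and magenta for higher genes by adjusted p, grey for genes that did not pass. Black bars mark list medians, from -5.70 for activated cluster D genes to 5.53 for repressed commitment genes, and the dotted line the median of all genes at 0.08.

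Most listed genes for DNA replication and mitosis were lower in Pax5 Prd/∆ progenitors, while most subunits of the replicative helicase did not pass the test. Over all genes, 16.4% were lower and 24.3% higher. Of 32 genes in this list, 23 were lower and 1 was higher (7 without Pax5 Prd/∆ replicate 1), with a median log2 fold change of -1.41. Plk1, the kinase that drives mitotic entry, fell from 255 and 259 TPM to 43.9 and 37.4 TPM (log2 fold change -2.66, SE 0.10, adjusted p = 2.5e-05), Ccna2, cyclin A2, from 175 and 171 TPM to 37.5 and 45 TPM and Cdc20, an activator of the anaphase-promoting complex, from 394 and 427 TPM to 108 and 102 TPM. Mki67, the proliferation marker Ki-67, fell from 217 and 204 TPM to 69.7 and 64.1 TPM. Of the 6 subunits of the replicative helicase, 5 did not pass, among them Mcm2 (497 and 503 TPM against 528 and 804 TPM) and Mcm5 (569.8 and 563 TPM against 599.6 and 761 TPM), and Mcm6 was the gene that was higher (308 and 287 TPM against 392 and 544 TPM).

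Against Pax5 ∆/∆ progenitors, 13 of the 32 genes were lower, 19 did not pass and none was higher, where 0.790% of all genes were lower and 1.21% were higher. The 13 became 19 with edgeR and 19 with DESeq2, 1 without a trend of the spread on the mean and 20 without Pax5 Prd/∆ replicate 2, but 0 without any 1 of the Pax5 +/∆ or Pax5 ∆/∆ libraries. Plk1 was at 133 and 127 TPM in Pax5 ∆/∆ progenitors (log2 difference -1.68, SE 0.10, adjusted p = 0.00202), Ccna2 at 81.3 and 83.2 TPM (log2 difference -1.0, SE 0.10, adjusted p = 0.0112) and Cdc20 at 242 and 209 TPM (log2 difference -1.09, SE 0.10, adjusted p = 0.00801). Levels were thus ordered from Pax5 +/∆ through Pax5 ∆/∆ to Pax5 Prd/∆ for these 3 genes, with no overlap between neighbours.

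Many promoters of mitotic genes share 2 short elements, the CCAAT box bound by NF-Y and the cell cycle homology region (CHR) bound by repressor and activator complexes of the cell cycle. RefSeq promoter windows (GRCm38.p6, 250 bases before to 50 bases after the start) were searched for TTTGAA, the CHR, and for CCAAT, on both strands, and matches may overlap each other. The windows below are those of the 4 genes with the largest drop against Pax5 +/∆ pro-B cells among the 13 that also differed from Pax5 ∆/∆ progenitors and have a window, with both motifs, or their reverse complements TTCAAA and ATTGG, in capitals. They lie at chr7:122159185-122159484 on the plus strand for Plk1, at chr4:118437294-118437593 on the minus strand for Cdc20, at chr19:37376132-37376431 on the plus strand for Kif11, which encodes a spindle motor, and at chr2:172370521-172370820 on the minus strand for Aurka, a centrosomal kinase.
Plk1: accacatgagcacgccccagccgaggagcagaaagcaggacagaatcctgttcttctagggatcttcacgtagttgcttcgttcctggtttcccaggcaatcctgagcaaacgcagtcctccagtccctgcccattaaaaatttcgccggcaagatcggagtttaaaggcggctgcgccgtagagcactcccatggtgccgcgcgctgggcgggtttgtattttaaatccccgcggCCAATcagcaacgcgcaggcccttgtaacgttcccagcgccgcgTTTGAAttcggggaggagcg
Cdc20: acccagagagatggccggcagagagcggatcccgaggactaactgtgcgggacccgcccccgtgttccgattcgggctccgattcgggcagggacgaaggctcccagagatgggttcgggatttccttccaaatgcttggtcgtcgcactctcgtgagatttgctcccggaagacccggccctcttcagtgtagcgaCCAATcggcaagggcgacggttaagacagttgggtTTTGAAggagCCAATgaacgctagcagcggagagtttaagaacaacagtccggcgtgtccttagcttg
Kif11: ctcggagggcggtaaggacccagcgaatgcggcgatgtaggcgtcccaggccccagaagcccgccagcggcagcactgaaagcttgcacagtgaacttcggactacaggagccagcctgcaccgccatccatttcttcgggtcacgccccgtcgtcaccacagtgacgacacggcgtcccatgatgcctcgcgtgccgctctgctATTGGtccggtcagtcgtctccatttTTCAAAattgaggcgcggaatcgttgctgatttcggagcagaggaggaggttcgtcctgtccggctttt
Aurka: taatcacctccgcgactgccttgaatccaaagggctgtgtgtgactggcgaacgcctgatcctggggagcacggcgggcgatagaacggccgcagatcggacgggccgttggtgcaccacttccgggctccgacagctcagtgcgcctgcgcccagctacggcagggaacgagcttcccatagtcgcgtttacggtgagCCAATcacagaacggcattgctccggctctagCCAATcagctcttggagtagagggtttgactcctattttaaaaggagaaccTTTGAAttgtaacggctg

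Each of the 4 windows held 1 CHR match and 1 or 2 CCAAT matches. Over the list, 27 genes had a window, of which 13 held TTTGAA and 22 held CCAAT. The share of all 27025 genes with a window was 20.2% for TTTGAA and 41.1% for CCAAT. Of the 10 genes with a window that were lower than in Pax5 ∆/∆ progenitors, 9 held each motif. A match is a description of the letters and does not show binding.

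Regulators of the G1 phase changed in both directions. Cyclin D3 (Ccnd3) fell from 1476 and 1526 TPM to 339.8 and 549.6 TPM (log2 fold change -1.80, SE 0.20, adjusted p = 0.000938), while Ccnd2 rose from 130.0 and 127 TPM to 272 and 349 TPM (log2 fold change 1.26, SE 0.12, adjusted p = 0.000459) and Ccnd1 from 4.75 and 5.95 TPM to 39.8 and 23.2 TPM. The inhibitor genes Cdkn2c and Cdkn2d, which encode p18 and p19, fell from 168 and 140.5 TPM to 29.6 and 31.2 TPM and from 281 and 277 TPM to 50.6 and 36.1 TPM. In this list 8 of 13 genes were lower and 4 higher, where 16.4% and 24.3% of all genes were, so the higher share is near that of all genes. Among 13 tested genes of the Bcl2 family, 2 were lower and 1 higher (1 and none without either Pax5 +/∆ library), which is no more than among all genes (16.4% and 24.3%). Bcl2l1, which encodes the survival protein Bcl-xL, fell from 97.9 and 98.2 TPM to 21 and 20.9 TPM (log2 fold change -2.22, SE 0.08, adjusted p = 2.5e-05), Bik fell from 2.82 and 2.45 TPM to 0.0853 and 0.484 TPM, and Bcl2l11, which encodes Bim, rose from 19.2 and 20.0 TPM to 29.6 and 29.7 TPM.

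Where Pax5 Prd/∆ progenitors stood apart from Pax5 ∆/∆ progenitors was tested directly by the contrast of these 2 genotypes. Of the 653 genes past the thresholds, 79 differed in it: 52 of the 289 lower genes, with Pax5 Prd/∆ above Pax5 ∆/∆ for 10 and below for 42, and 27 of the 364 higher genes, with Pax5 Prd/∆ above for 24 and below for 3. Both contrasts use the same Pax5 Prd/∆ libraries, so the overlap itself is no result. The number of such genes depends strongly on the fit: it was 135 with edgeR and 194 with DESeq2 on recovered reads, 16 without a trend of the spread on the mean, and between 1 and 177 when 1 library was left out. Without either Pax5 +/∆ library it was 2, and without replicate 1 or 2 of Pax5 ∆/∆ it was 3 or 1.

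The 8 largest of these differences included Fos and Jun, which encode subunits of the transcription factor AP-1. Fos (chr12:85473890-85477273, plus strand) was at 11.4 and 12.4 TPM in Pax5 +/∆ pro-B cells, at 47.9 and 51 TPM in Pax5 Prd/∆ progenitors and 1.68 and 1.64 TPM in Pax5 ∆/∆ progenitors. Jun was at 201 and 245 TPM, 1079.8 and 942 TPM and 126 and 119.8 TPM. In both genes Pax5 Prd/∆ progenitors were highest and Pax5 ∆/∆ progenitors lowest, with no overlap. Fos differed by a log2 value of 4.81 from Pax5 ∆/∆ progenitors (SE 0.13, adjusted p = 8.01e-05) and 2.05 from Pax5 +/∆ pro-B cells (SE 0.13, adjusted p = 8.34e-05), and passed the first test in all 17 alternative fits. Jun differed by 3.04 and 2.18, and passed in 16 of 17.

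The other 6 genes passed the test in fewer of the alternative fits. Ccl3, the chemokine MIP-1α, was at 2.16 and 2.13 TPM, 22.5 and 11.7 TPM and 1.16 and 1.25 TPM in Pax5 +/∆, Pax5 Prd/∆ and Pax5 ∆/∆ cells, and Smoc1, a secreted calcium-binding protein, at 1.52 and 0.901 TPM, 63.9 and 41.4 TPM and 7.5 and 11.4 TPM. Deptor, an inhibitor of mTOR, was at 1.5 and 1.45 TPM, 6.6 and 6.81 TPM and 1.59 and 1.44 TPM, and the small GTPase gene Rab7b at 0.971 and 0.747 TPM, 9.78 and 5.09 TPM and 1.33 and 1.28 TPM. Log2 differences from Pax5 ∆/∆ were 3.65, 2.46, 2.08 and 2.35, and these 4 genes passed in 12, 10, 12 and 10 of 17 alternative fits.

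Srpk3, a kinase of splicing factors, lay between the other genotypes, at 10.2 and 9.82 TPM, 3.74 and 2.85 TPM and 0.516 and 0.89 TPM in the same order (log2 difference 2.11, SE 0.29, adjusted p = 0.0252). Rsph1 was lower in Pax5 Prd/∆ progenitors than in Pax5 ∆/∆ progenitors, which had 0.536 and 0.898 TPM (log2 difference -2.09, SE 0.34, adjusted p = 0.041), but all 4 of these values are below 1 TPM. They passed in 10 and 7 of 17 alternative fits.

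**Figure D4:**
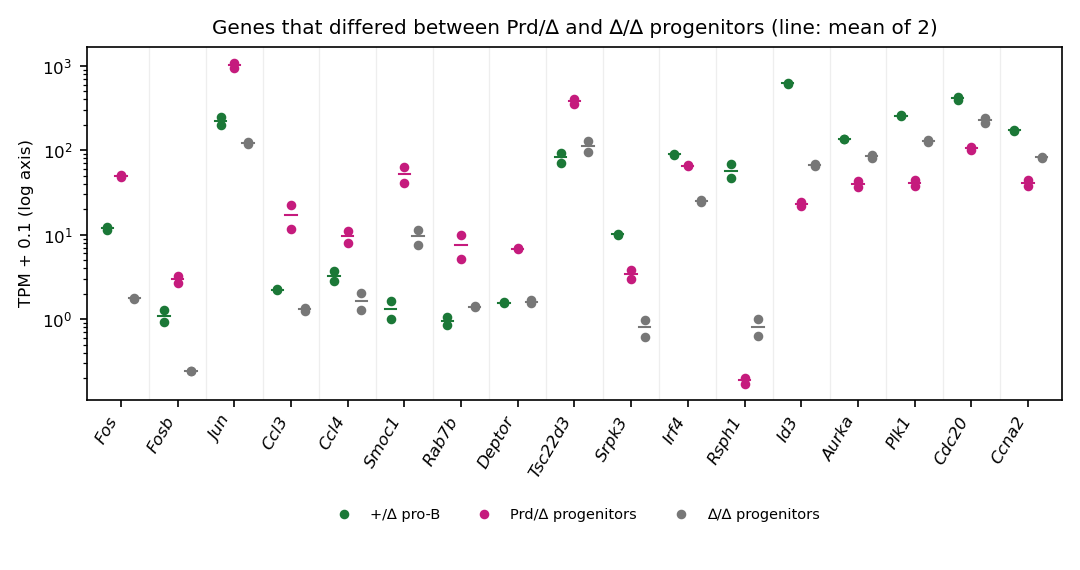
TPM + 0.1 (log axis) of 17 genes that differed between Pax5 Prd/∆ and Pax5 ∆/∆ progenitors, in each of the 6 libraries, with 2 points per genotype and a line at their mean (colours as for the B-lineage genes). Fos, Fosb, Jun, Ccl3 and Ccl4 were highest in Pax5 Prd/∆ progenitors, and Plk1, Cdc20, Aurka and Ccna2 were lowest there.

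Across 26 tested immediate-early and stress genes, 10 were higher and 5 lower against Pax5 +/∆ pro-B cells, where 24.3% and 16.4% of all genes were, so the lower share is near that of all genes. Against Pax5 ∆/∆ progenitors, 7 were higher and none lower, where 1.21% and 0.790% of all genes were. The 10 became 5 and 6 without Pax5 +/∆ replicate 1 and 2, and the 7 became 2 without either of these and 3 and 1 without Pax5 ∆/∆ replicate 1 and 2. Fosb, a relative of Fos, was at 1.17 and 0.815 TPM, 2.55 and 3.16 TPM and 0.142 and 0.146 TPM in Pax5 +/∆, Pax5 Prd/∆ and Pax5 ∆/∆ cells. Ddit4, which is induced by stress and glucocorticoids, was at 107 and 131 TPM, 283 and 245 TPM and 51.8 and 34 TPM. Egr1 and Egr3, early growth response factors, went the other way against Pax5 +/∆, from 26.1 and 27.2 TPM to 7.62 and 7.47 TPM and from 2.04 and 1.71 TPM to 0.201 and 0.0998 TPM, and the heat shock gene Dnajb1 did not pass (adjusted p = 0.119). Many of these genes respond to handling of cells, and whether the sort had a part in their levels was not tested.

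Irf4, a factor that promotes the pre-B cell stage, was between the other genotypes, at 91 and 88.4 TPM, 66.8 and 64.7 TPM and 24.3 and 25.4 TPM (log2 difference 1.40, SE 0.08, adjusted p = 0.00202 for Pax5 Prd/∆ minus Pax5 ∆/∆). Id3 was lowest in Pax5 Prd/∆ progenitors, as Pax5 ∆/∆ progenitors had 68.8 and 65.3 TPM (log2 difference -1.54, SE 0.08, adjusted p = 0.00202). Bmf, a proapoptotic gene of the Bcl2 family, was at 35.5 and 42.9 TPM, 34.1 and 38.3 TPM and 13.7 and 14.2 TPM, so it differed from Pax5 ∆/∆ progenitors (log2 difference 1.37, SE 0.12, adjusted p = 0.00882) and did not pass against Pax5 +/∆ pro-B cells. Klrb1c, which encodes NK1.1, was at 8.56 and 8.24 TPM, 10.4 and 7.92 TPM and 2.9 and 2.32 TPM, with the same outcome in the 2 tests (log2 difference 1.76, SE 0.20, adjusted p = 0.0141 against Pax5 ∆/∆). Differences from Pax5 ∆/∆ passed in 13, 13, 11 and 10 of 17 alternative fits for Irf4, Id3, Bmf and Klrb1c.

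Genes of interleukin-7 receptor signalling were higher for 7 of 12 and lower for 1 (all genes: 24.3% and 16.4%). Il7r itself rose from 156 and 138 TPM to 366 and 295 TPM (log2 fold change 1.16, SE 0.16, adjusted p = 0.00199), and the STAT5 targets Cish and Socs2 rose from 20.3 and 22.4 TPM to 62.5 and 88.5 TPM and from 34.5 and 24.2 TPM to 59.7 and 70.1 TPM. The exception was Stat5b, at 56.1 and 58.1 TPM against 37.9 and 46.8 TPM (log2 fold change -0.44). Among 16 tested genes for chemokines, their receptors and homing, 9 were higher and 3 lower, with a lower share near the 16.4% among all genes (24.3% higher). Itgb7, the β7 integrin chain, rose from 0.664 and 0.785 TPM to 11.6 and 10.8 TPM and the chemokine gene Ccl9 from 0.567 and 1.19 TPM to 14.3 and 5.85 TPM, while S1pr1, the receptor for egress from the marrow, fell from 23.4 and 22.9 TPM to 5.84 and 7.22 TPM.

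Of 24 genes for glucose uptake and energy metabolism, 7 were higher (4 and 3 without Pax5 +/∆ replicate 1 and 2) and 1 lower, with a higher share near the 24.3% among all genes and a median log2 fold change of 0.20. Slc2a6, a glucose transporter gene, rose from 5.11 and 5.27 TPM to 51.3 and 50.2 TPM (log2 fold change 3.26, SE 0.09, adjusted p = 1.37e-05), and Tsc22d3, the glucocorticoid-induced leucine zipper gene, from 71.5 and 92.8 TPM to 353 and 404 TPM, with 129 and 95.7 TPM in Pax5 ∆/∆ progenitors (log2 difference 1.77, SE 0.18, adjusted p = 0.0112). Among 5 tested Groucho corepressor genes, 1 was lower and 2 higher, where 16.4% and 24.3% of all genes were. The lower ones numbered 3 with edgeR and 2 with DESeq2. Aes, a member of this list, was at 714 and 724 TPM in Pax5 +/∆ pro-B cells. It was at 337 and 596 TPM in Pax5 Prd/∆ progenitors and did not pass. Of the Groucho corepressors, which the octapeptide of Pax5 recruits and the paired domain alone lacks, Tle3 was lower (308 and 321 TPM against 176 and 209 TPM), Tle1 and Tle2 were higher (neither without either Pax5 +/∆ library) and Tle4 did not pass (61.7 and 63.6 TPM against 50.7 and 56.7 TPM).

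Libraries of other experiments in the series, with no sample in common, gave the same direction for most of these genes. In 3 samples of Pax5 +/+ pro-B cells and 2 of Pax5 ∆/∆ progenitors, limma called 10.7% of 13026 genes lower and 13.3% higher in Pax5 ∆/∆ progenitors (1391 and 1726 genes, which became 649 to 1105 and 652 to 1256 with 1 library left out, fewest without either Pax5 ∆/∆ library). Of the 289 genes lower in Pax5 Prd/∆ progenitors, 288 could be tested there and 275 were lower, with none higher. All 364 higher genes could be tested, of which 326 were higher and 1 was lower (2 when Pax5 +/+ replicate 5 or either Pax5 ∆/∆ library was left out). These libraries also compare pro-B cells with progenitors from another gate, so the change of sort is shared.

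The gene in the opposite direction was Gm25500, which is named here after its values were seen. It was at 1.16 and 2.37 TPM in Pax5 +/∆ pro-B cells and at 15 and 4.84 TPM in Pax5 Prd/∆ progenitors, but at 5.84, 6.5 and 5.08 TPM in Pax5 +/+ pro-B cells and at 0 in both Pax5 ∆/∆ progenitor libraries of the other experiments. Heyl, the gene with the largest drop, had a log2 fold change of -9.65 in those libraries. Fos and Jun had 1.27 and 0.97, with adjusted p = 0.016 and 0.00493 by limma, so that Pax5 ∆/∆ progenitors were above Pax5 +/+ pro-B cells there, whereas in the Prd experiment they were below Pax5 +/∆ pro-B cells.

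**Figure D5:**
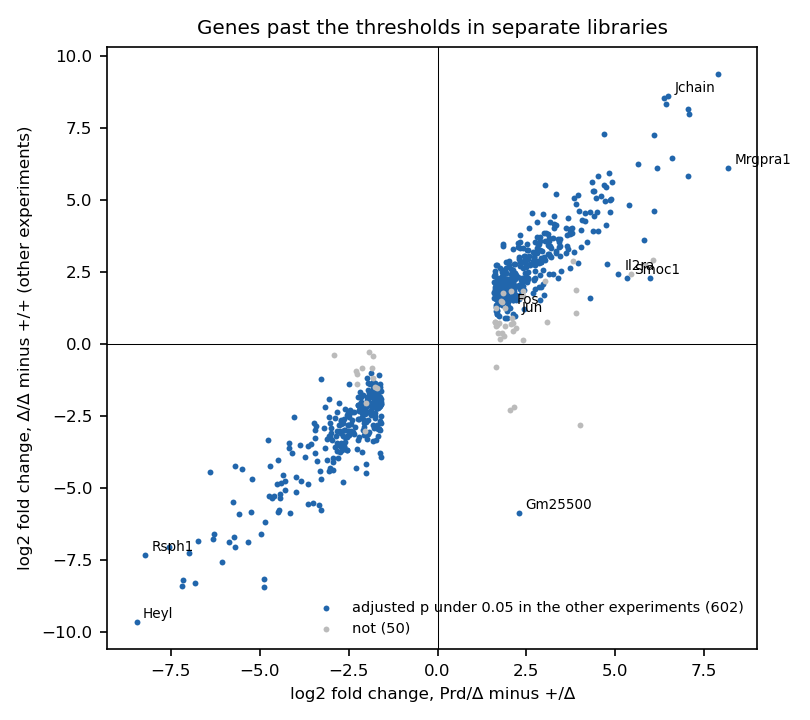
Each point is 1 of the 652 genes past the thresholds that could be tested in both sets of libraries, at its log2 fold change in Pax5 Prd/∆ progenitors over Pax5 +/∆ pro-B cells (x axis) and in Pax5 ∆/∆ progenitors over Pax5 +/+ pro-B cells of the other experiments (y axis). The 602 blue points passed the test in the other experiments, and 1 of them, Gm25500, lies in the opposite quadrant.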

How the data were processed

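Poly(A) RNA of sorted bone marrow cells was sequenced by the authors, who trimmed reads to 50 nucleotides, aligned them to GRCm38 with STAR and counted them per RefSeq gene with Rsubread, and deposited TPM (reads per gene divided by gene length, scaled to a fixed total per library) for each library separately. Per the labels, the submitters' processing notes name STAR 2.4.2a, TopHat 1.4.1, Bowtie 1.0.0 and SAMtools 1.9, without saying which belongs to which assay. For 2 libraries the authors also deposited raw read counts per gene, which were used to check row order and to imply gene lengths. Gene coordinates were those of the GENCODE annotation of GRCm38. The row order placed 144 of 144 genes with a published name and TPM. TPM from row-ordered tables were read as the same genes in all libraries.

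Groups came from the GEO labels. Genes above 1 TPM in at least 1 of the 4 compared libraries were tested on log2(TPM + 0.1) with limma 3.58.1 in R 4.3.3 (two-sided moderated test with a trend, Benjamini-Hochberg adjustment), with the 2 Pax5 ∆/∆ libraries in the fit to share the spread. This replaces DESeq2, which the study used, because TPM are no counts. Genes past the thresholds had adjusted p under 0.05, more than 3-fold change and a mean above 5 TPM in 1 genotype, without immunoglobulin and histone genes. Named were the 12 lower and 12 higher genes with the largest change, the 8 of those past the thresholds that differed most from Pax5 ∆/∆, Pax5, and members of fixed lists. All members, lists and tests were chosen with earlier results of these data known.

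Whole reads could be recovered from TPM and implied lengths at 100% of the values tested (within 0.01 reads, for values up to 200 reads), and edgeR 4.0.16 and DESeq2 1.42.0 on these reads were alternatives, besides other pseudocounts, filters, scalings, a replicate block and leaving out each library. Where a genotype was left with 1 library, that library was assumed to vary like the others. In such a design a genotype has at most 2 libraries, so SEs rest on the spread pooled over 3 genotypes. The scripts were tested on simulated reads with known changes. Tables of other assays of the series were not used here.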

Additional observations from a re-analysis of the deposited data

Results flagged for a closer look

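The change from Pax5 +/∆ pro-B cells differed between Pax5 Prd/∆ and Pax5 ∆/∆ progenitors for 26 of the genes named above. Since both changes are taken from the same Pax5 +/∆ libraries, their difference is the log2 difference between Pax5 Prd/∆ and Pax5 ∆/∆, which limma tested directly with Benjamini-Hochberg adjustment. It was positive, with Pax5 Prd/∆ above Pax5 ∆/∆, for 19 genes, with log2 differences of Fos 4.81, Ccl3 3.65, Fosb 3.59, Jun 3.04, Ddit4 2.65, Smoc1 2.46, Rab7b 2.35, Srpk3 2.11, Deptor 2.08, Tsc22d3 1.77, Klrb1c 1.76, Vpreb3 1.54, Cd79a 1.48, Mrgpra1 1.46, Irf4 1.40, Bmf 1.37, Sit1 1.04, Slc2a6 0.58 and Vpreb1 0.46. It was negative for 7 genes, with Rsph1 -2.09, Jchain -2.03, Plk1 -1.68, Id3 -1.54, Cdc20 -1.09, Ccna2 -1.0 and Cdkn2c -0.80. Adjusted p ran from 8.01e-05 for Fos to 0.0469 for Jchain. For Mrgpra1 the difference passed in 4 of 15 alternative fits, for Vpreb1 in 6 of 17 and for Slc2a6 in 8 of 17. No genotype of the Prd experiment has more than 2 libraries, so no library could be tested for standing apart from its group.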

How the results depend on the processing

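Genes past the thresholds numbered between 561 and 661 under other pseudocounts, filters, scalings, the narrower 4-library fit, no trend, edgeR, DESeq2 and the replicate block, and 624 to 703 when 1 library was left out, against 653. With a limit of 2-fold there were 1352. The share of lower genes, 44.3%, ran 40.5% to 47.1% with 1 library left out and was 50.4% with median-centred values, which moved the median log2 fold change of all genes from 0.085 to -0.034. On adjusted p alone, 3374 genes passed with no filter on low values, 5207 with median-centred values, and 2325 to 5902 with 1 library left out, the lowest without a Pax5 +/∆ library. Least stable was the number that also differed between Pax5 Prd/∆ and Pax5 ∆/∆ progenitors: 79 became 9 with no filter, 16 with no trend, 135 with edgeR, 194 with DESeq2, 142 with the 2-fold limit, and 1 to 177 with 1 library left out. Genes shared with the other experiments, 601 in all, ran 475 to 570 there with 1 library left out, an alternative added after seeing the data. The cause of these shifts was not tested.

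With the replicate number as a block, 659 genes passed the thresholds, 4889 passed on adjusted p alone and 65 also differed from Pax5 ∆/∆, and among the named genes Epor lost its call against Pax5 +/∆ (adjusted p = 0.0555). Of 26 named genes that differed from Pax5 ∆/∆, 5 lost that call with the block, namely Sit1 (adjusted p = 0.0501), Rsph1 (0.0566), Mrgpra1 (0.0681), Vpreb1 (0.0694) and Slc2a6 (0.0743). Correlations of the replicate differences were 0.04 between Pax5 Prd/∆ and Pax5 +/∆, -0.11 between Pax5 Prd/∆ and Pax5 ∆/∆ and -0.1 between Pax5 +/∆ and Pax5 ∆/∆. With 2 samples per genotype these values cannot tell whether same-numbered samples were handled together, and the labels do not say.

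Of 2618 recomputed fold changes of the 146 named genes, 2531 kept their direction and side of the threshold, 66 no longer passed, 13 newly passed and 8 turned direction. The reversals were of genes that did not pass, namely Bmf (log2 fold change -0.25 to 0.03 with 1 library left out, positive without Pax5 +/∆ replicate 2), Klrb1c (-0.01 with median-centred values, and -0.08 to 0.30 with 1 library left out, negative without Pax5 Prd/∆ replicate 1) and Elane (0.08 with pseudocount 1, 0.64 with edgeR, 0.60 with DESeq2, and -1.58 to 1.49 with 1 library left out, positive without Pax5 Prd/∆ replicate 1 and, at 0.05, without Pax5 +/∆ replicate 2). Calls lost without a Pax5 +/∆ library were those of Bcl2l11, Bik, Cd74, Cxcr5, Dtx1, Epor, Hes1, Irf4, Mcm6, Nrarp, Srpk3, Stat5b, Syk and Tcf4 for either library, Ddit4 and Igll1 for replicate 1, and Fosb, Meis1 and Rag1 for replicate 2. Dtx1, Epor and Nrarp also lost theirs without Pax5 Prd/∆ replicate 1, and Cd74 and Epor without either Pax5 ∆/∆ library. Without Pax5 Prd/∆ replicate 1, Dnajb1, Mcm2, Mcm5 and Pax5 passed, and without replicate 2 so did Elane, Kit and Tle4. Depth limits genes near 1 TPM most, and 119 of the tested genes had no implied length and were left out of the fits on reads.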

Other observations

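Immunoglobulin gene segments, which were left out of the counts above, are described here after their values were seen, and reads of these multigene families cannot be assigned to single segments with certainty. Heavy chain V segments (Ighv) summed to 1048 and 1080 TPM in Pax5 +/∆ pro-B cells, at 633.5 and 625 TPM in Pax5 Prd/∆ progenitors and 735 and 465 TPM in Pax5 ∆/∆ progenitors, and 49 of 128 tested were lower and 5 higher in Pax5 Prd/∆ progenitors by limma (adjusted p under 0.05). Kappa light chain V segments (Igkv), which rearrange after the heavy chain in normal development, went the other way, with sums of 57.7 and 51.6 TPM, 458 and 416 TPM, and 210.3 and 286 TPM in the same order, and 39 of 59 tested were higher and 1 lower. Of the 12530 genes outside the immunoglobulin and histone classes, 16.4% were lower and 24.3% higher in this comparison. The lambda constant segments (Iglc) summed to 32.2 and 16.2 TPM, 487 and 455 TPM, and 192 and 349 TPM. Pax5 Prd/∆ progenitors were thus above both other genotypes in the Igkv and Iglc sums, and below Pax5 +/∆ pro-B cells in the Ighv sums. Poly(A) transcripts of segments include germline transcripts, so these sums do not measure rearrangement.

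Genes of the Gimap family, small GTPases of lymphocytes that were singled out after their values were seen, were higher for 7 of 8 tested (24.3% of all genes), with a median log2 fold change of 1.96. Of these, 1 differed from Pax5 ∆/∆ progenitors by limma. These genes have related sequences, so reads may be split among them with error.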
